A study of Drosophila melanogaster with 4 samples.

Results

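The broad Pol II domains described here are the 350 enriched regions of 10 kb or more on the chromosome arms 2L, 2R, 3L, 3R, 4 and X in a map of RNA polymerase II (Pol II) from Drosophila melanogaster larvae. They were chosen by their width alone, measured in the list that the authors deposited for both ChIP replicates together, the replicate set, so no width given below is a finding. That list has 8000 enriched regions on these 6 arms and 8273 in all, so the broad domains are 4.38% of the regions on the arms. They held 5.48 Mb, which is 19.8% of all bases inside regions of those arms and 4.55% of the arms themselves. All samples were nuclei of larvae of instar 3 from the wild-type strain Oregon-R (Oregon-R-modENCODE), with no transgene, treatment or mutation in any group. There were 2 libraries of chromatin immunoprecipitated (ChIP) with an antibody labelled as RNA Pol II from abcam and 2 libraries of input chromatin, which had no immunoprecipitation. Input replicate 2 was used for ChIP replicate 1 and input replicate 1 for ChIP replicate 2, per the labels. The labels give neither the form of Pol II that the antibody binds nor the sex or tissue make-up of the larvae, and nothing in them says that the replicates came from separate collections. In such mixed nuclei, Pol II in fewer cells and less Pol II per cell cannot be told apart.

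Pol II is the enzyme that transcribes protein-coding genes. It gathers at promoters, where in Drosophila it often pauses just after starting, and it then travels along the gene body while it makes RNA. A sharp region in a ChIP map is typical of a promoter with little Pol II beyond it, whereas a region of many kilobases is what a long transcribed unit, or several transcribed genes side by side, can give. The regions here could not be assigned to genes, because their coordinates are on FlyBase release 5, per the file headers, and the gene table used here is on release 6. All coordinates below are release 5, on no strand.

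Each region carries 1 score, a log2 value taken here as the log of ChIP reads divided by input reads, plus a constant of its list, and a fold below is 2 to the power of the score. All 8320 scores of the replicate set, enriched and depleted, equalled such a ratio of whole numbers, with a constant of 0.09. In lowest terms, the lower limit that a ratio keeps, a broad domain rested on a median of 6100 ChIP reads and 2676 input reads in the replicate set, and a region of at least 2500 but under 10000 bp, called the narrower class below, on 1383 and 731. The standard error of the score from counting alone was therefore small, with a median of at most 0.03 on the log2 scale for broad domains and 0.07 for the narrower class. Summed over all enriched regions, the limits came to 5062681 ChIP reads for replicate 1 and 4695975 for replicate 2; how many reads each library had in all is unknown. Intervals given with a fold are 95% normal intervals on the log scale; those with a share are 95% Wilson intervals. The former cover counting error only, and PCR copies are not separate molecules. The latter treat domains as independent, which domains of 1 list from the same libraries are not, so they hold no replicate spread. All 350 domains had a counting interval of the score wholly above 0, and no depleted region of any of the 3 lists touched one. Neither is a finding, since only enriched regions, all with scores above 0, were taken. The replicate set, replicate 1 and replicate 2 lists held just 47, 7 and 2 depleted regions.

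Most broad domains were only modestly wider than the threshold. Their median width was 13.6 kb, with quartiles of 11.2 and 17.5 kb. Domains of 10 to under 15 kb numbered 209 (59.7%), those of 15 to under 20 kb numbered 87, those of 20 to under 30 kb numbered 38, and 16 reached 30 kb or more. The narrowest were X:21874876-21884888 (10.013 kb, 2.32-fold), 2L:16523952-16533982 (10.031 kb, 2.80-fold) and 2L:154414-164450 (10.037 kb, 4.17-fold). Just under the threshold stood 3R:5515930-5525926 (9.997 kb, 1.95-fold), 2R:11875878-11885848 (9.971 kb, 2.01-fold) and 3L:19872536-19882498 (9.963 kb, 1.62-fold). The widths ran on across the threshold without a gap.

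The arm 3R carried 88 domains, the X 75, 2R 63, 3L 58, 2L 56 and chromosome 4 only 10. Per Mb of arm this was 7.40 on chromosome 4, 3.34 on the X, 3.15 on 3R, 2.98 on 2R, 2.43 on 2L and 2.36 on 3L. Chromosome 4 is the smallest chromosome and is known for active genes set within heterochromatin; broad domains took up 10.3% of it. On the X they took up 5.46%, and on the 4 large autosomal arms together 4.26%, from 3.59% on 3L to 5.04% on 3R. Males of this species transcribe the X at a raised rate through dosage compensation, and any part of this was not tested. Median widths were close, between 12.2 kb on 2L and 14.7 kb on the X. With 1 replicate set list there is no replicate spread for these densities, so no test was made. In the single replicates, regions of 10 kb or more were fewer, 208 in replicate 1 and 186 in replicate 2. The order of the arms depended on the replicate: the X had 49 such regions in replicate 1 and 29 in replicate 2, chromosome 4 had 2 and 8, and the 4 large autosomal arms had 157 and 149.

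**Figure D1:**
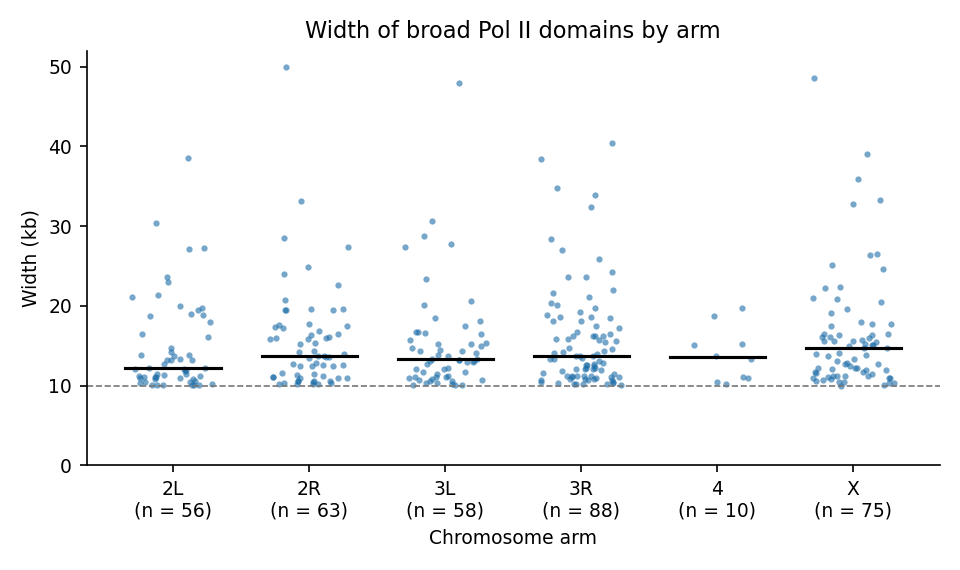
Width in kb (vertical axis) of each of the 350 broad domains of the replicate set, by chromosome arm; black lines are medians and the dashed line is the 10 kb threshold. Medians lie between 12.2 and 14.7 kb, and the domains near 50 kb are on 2R, the X and 3L.

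The widest domain was 2R:11647250-11697222, 49.973 kb wide at 1.76-fold (1.71 to 1.82). It lay as 4 regions in replicate 1 and 4 in replicate 2, which covered 91.2% and 97.2% of its bases. Next came X:1474396-1522986, 48.591 kb at 2.77-fold (2.70 to 2.84), in 4 and 5 regions. Replicate 2 covered only 62.9% of it, against 91.9% in replicate 1. The 47.945 kb domain 3L:17945794-17993738, at 2.81-fold (2.75 to 2.87), was nearly unbroken: 2 regions covered 98.7% in replicate 1, and 1 region, which ran on beyond it for a span of 51.4 kb, covered 99.9% in replicate 2.

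Of the other domains among the 10 widest, those broken in replicate 1 were often 1 region in replicate 2. This was so for 3R:19008300-19048730 (40.431 kb, 2.53-fold, 3 regions against 1), 2L:13022730-13061242 (38.513 kb, 2.30-fold, 2 against 1), 3R:26149680-26188136 (38.457 kb, 1.75-fold, 3 against 1) and 3R:5164472-5198362 (33.891 kb, 3.18-fold, 3 against 1). The opposite held for X:516772-552624 (35.853 kb, 2.96-fold), with 1 region in replicate 1 and 5 in replicate 2. The domain X:1528534-1567522, 38.989 kb wide at 3.45-fold (3.36 to 3.55), was the only one of these 10 that both replicates held as 1 region; they covered 96.9% and 94.0% of it. The domain 3R:27678910-27713672, 34.763 kb at 1.53-fold (1.35 to 1.74), was the most broken of all in replicate 2, with 7 regions there against 3 in replicate 1. No fold of the 10 widest passed 3.45, where the upper quartile over all broad domains was 3.06 and the highest fold 21.05. The widest on chromosome 4, 4:770298-790050, spanned 19.753 kb at 1.58-fold, in 2 and 5 regions.

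**Figure D2:**
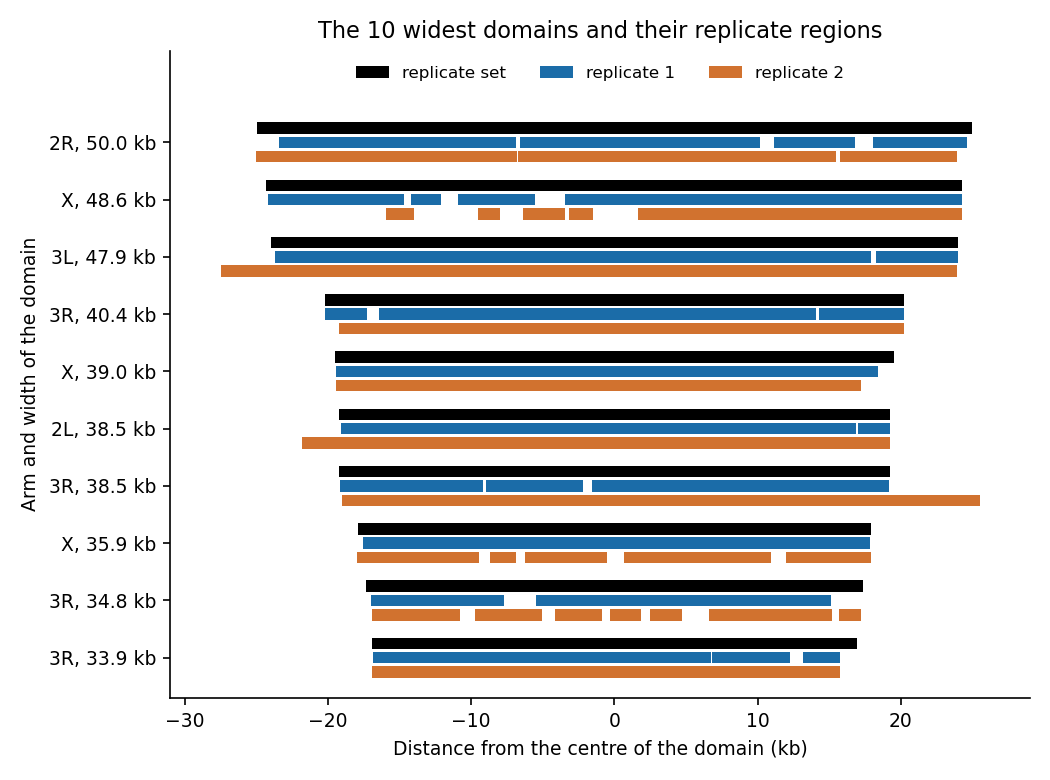
The 10 widest domains of the replicate set (black) with the overlapping enriched regions of replicate 1 (blue) and replicate 2 (orange); the horizontal axis is the distance in kb from the centre of each domain. Both replicates hold only the X domain of 39.0 kb as 1 region; the X domain of 48.6 kb has the most uncovered sequence in replicate 2.

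Whether a broad domain stood as 1 region in the single replicates was counted by regions that overlapped it by at least 1 bp. Replicate 1 held 160 of the 350 domains as 1 region, 45.7% (40.6 to 51.0), where the share over all replicate set regions on the 6 arms was 74.3%. Replicate 2 held 139 as 1 region, 39.7% (34.7 to 44.9), against 64.7% over all regions. Both replicates did so for 84 domains, 24.0% (19.8 to 28.7), against 56.6%. Since width chose the domains and a wide region can be cut in more places, the gap to these shares is not a finding on the domains. Replicate 1 broke 190 domains (54.3%) into 2 or more regions and replicate 2 broke 210, where 7.39% and 7.19% of all regions were broken. Both replicates broke 135 domains, 38.6%, against 3.45% of all regions. In the remaining 131 domains only 1 replicate had exactly 1 region. The number of pieces was equal in both replicates for 149 domains, higher in replicate 1 for 89 and higher in replicate 2 for 112.

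Most broken domains were in few pieces. In replicate 1, 107 domains were in 2 pieces, 64 in 3, 13 in 4, 5 in 5 and 1 in 6. In replicate 2, 132 were in 2, 62 in 3, 12 in 4, 3 in 5 and 1 in 7. The domain with 6 pieces in replicate 1 was 2L:16306278-16329930 (23.653 kb, 2.55-fold), which replicate 2 held as 1 region at 2.90-fold. Among those in 5 pieces in replicate 1, the widest were X:2539110-2572438 (33.329 kb, 2.24-fold) and 3R:27722642-27743798 (21.157 kb, 1.53-fold), with 2 and 3 pieces in replicate 2. Relative to length, replicate 1 made 0.55 breaks per 10 kb of broad domain and 0.30 per 10 kb of the narrower class. In replicate 2 these were 0.57 and 0.27. Width chose the domains in a list that is not independent of the replicates, so the gap between these rates is not a finding on the domains.

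**Figure D3:**
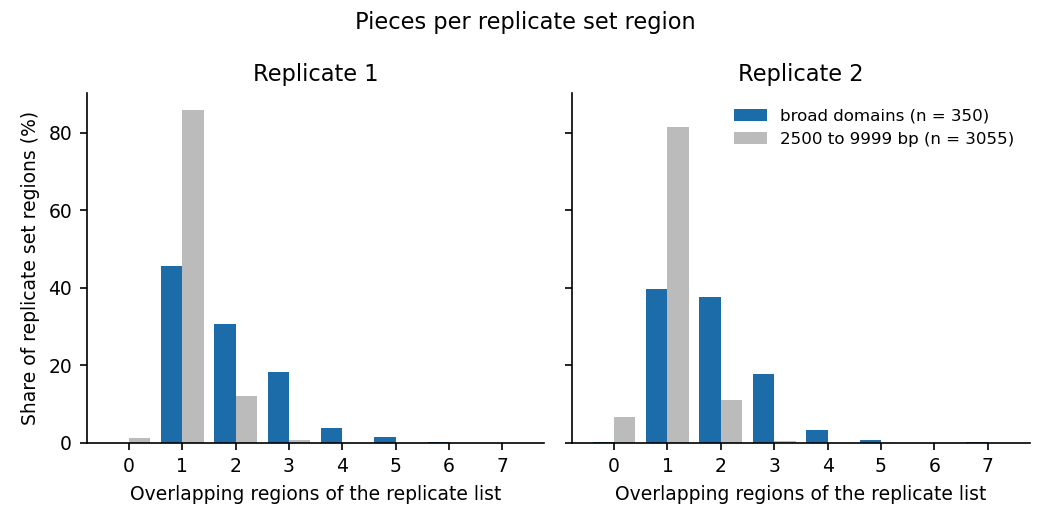
Share in percent of the 350 broad domains (blue) and of the 3055 regions of the narrower class (grey) by how many enriched regions of replicate 1 (left) or replicate 2 (right) overlap them. Of the broad domains, 45.7% and 39.7% stand as 1 region; of the narrower class, 85.8% and 81.6% do.

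Most breaks were short. The gaps between pieces had a median of 373 bp in replicate 1 (299 gaps) and 573 bp in replicate 2 (310 gaps), and 96.0% and 91.3% of them were under 2000 bp. After regions of a replicate less than 2000 bp apart were joined, both replicates held 89.4% of the domains as 1 region, in place of 24.0%. With joining under 500 bp the share was 49.1%. In 41 gaps of replicate 1 and 27 of replicate 2 the pieces lay within 50 bp of each other, in 5 and 1 of these with no base between them, and the median step in score from 1 piece to the next was then 0.50 and 0.66 on the log2 scale. Across gaps over 50 bp it was much the same, 0.45 and 0.55. A step of 1 or more stood at 9 of the 41 and 10 of the 27, and at 50 of 258 and 77 of 283 gaps over 50 bp. A pair of touching regions in the 6-piece domain of 2L had one of these larger steps: 2L:16316366-16322318 had 1.57-fold and 2L:16322319-16327130 had 4.74-fold.

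Most gaps of 1 replicate overlapped no gap of the other. Of the gaps of replicate 1, 85 (28.4%) overlapped a gap of replicate 2, and 82 of the replicate 2 gaps (26.5%) overlapped a gap of replicate 1. Both counts include gaps in domains that the other replicate held as 1 region, where no overlap was possible. Among the 135 domains broken in both, 77 had a break at a common place. The longest gap, 7726 bp, lay in 3R:23077038-23090770 in replicate 2, where replicate 1 had 1 region over nearly all of the domain. The longest gap of replicate 1, 3620 bp, lay in 2R:14315940-14332274 and overlapped a gap of replicate 2.

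The replicates covered a median of 95.02% and 92.4% of the bases of a broad domain, and 86.9% lay inside regions of both (quartiles 78.0 and 94.1%). At least 80% was covered in 328 domains by replicate 1 and in 292 by replicate 2. Broken domains had medians of 92.0% and 89.2%, and 112 of 190 in replicate 1 and 88 of 210 in replicate 2 were covered over 90% or more. In the 135 domains broken in both, a median of 81.5% of the bases lay inside regions of both. In the broken domains of each replicate, the largest piece alone spanned a median of 57.1% and 52.6%. Coverage dropped at the ends: in the outermost 5% of a domain on either side, replicate 1 covered 77.1% of the domains and replicate 2 covered 71.7% and 68.3%, while at the centre they covered 96.0% and 93.7%. The outer edges nevertheless lay close to those of the replicate set, which is not independent of the replicates. Outer edges were not compared between the replicates. Their distance to the edge in the replicate set had a median of 90 bp in replicate 1 and 110 bp in replicate 2, with 67.0% and 56.9% within 200 bp. Edges lay inside the domain in 560 of 700 and in 507 of 698 cases, so the replicate set list mostly reached slightly farther out than either replicate. In replicate 1, 16 of 700 edges were off by more than 2000 bp, and in replicate 2, 56 of 698.

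A few domains rested mainly on 1 replicate. Only 2L:6973444-6985474 (12.031 kb, 1.47-fold) had no region in a replicate, where 28.1% of all replicate set regions had none in replicate 2. Replicate 1 held it as 1 region at 1.77-fold that covered 100% of it. The next lowest coverage in replicate 2 was 38.7% of 3R:23077038-23090770 (13.733 kb, 2.15-fold) and 46.8% of 3R:17043812-17054200 (10.389 kb, 1.70-fold). Every domain had a region in replicate 1, where 18.3% of all replicate set regions had none. None of the 350 lacked a region in both replicates, as 13.8% of all regions did. In the narrower class 1.37% had none in replicate 1, 6.64% had none in replicate 2 and 0.43% had none in either. A wide region is easier to touch by 1 bp, so these gaps are not a finding on the domains. The lowest coverage in replicate 1 was 35.7% of 3R:17133274-17146554 (13.281 kb, 2.89-fold), 64.3% of 4:194680-209812 (15.133 kb, 1.63-fold) and 66.2% of 2R:14315940-14332274 (16.335 kb, 2.38-fold). Replicate 2 covered 88.7%, 99.7% and 75.9% of these. The domain 3R:17133274-17146554 counted as held as 1 region in both replicates, although in replicate 1 that region had a span of only 4.75 kb. The count of domains held as 1 region thus includes a few that a replicate saw only in part.

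The X had the lowest share of domains held as 1 region, and the lowest coverage, of the 6 arms in replicate 2. That replicate held 28.0% of the X domains as 1 region and covered a median of 89.6% of their bases, against 42.6% and 93.2% on the 4 large autosomal arms together. Single arms came nearer: 2R had 34.9% held as 1 region and 3L a coverage of 90.8%. In replicate 1 the X had 46.7% and 94.9%, against 45.3% and 95.3%. Input reads per kb in the pieces, in lowest terms, had medians of 73.8 on the X and 110 on the autosomal arms in replicate 1, and of 90.8 and 118 in replicate 2. The part of depth in these shares was not tested, and with 1 value per replicate the difference between the replicates was not tested either.

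All 10 domains of chromosome 4 had a region in both replicates. They covered medians of 87.2% in replicate 1 and 95.3% in replicate 2, the only arm where replicate 2 covered the larger share by more than a point. Both replicates held 4:154238-165284 (11.047 kb, 1.98-fold), 4:478826-489724 (10.899 kb, 1.77-fold) and 4:1325524-1336036 (10.513 kb, 4.00-fold) as 1 region. Replicate 2 alone did so for 4:667420-686106 (18.687 kb, 2.47-fold) and 4:793958-809220 (15.263 kb, 1.89-fold), each in 3 pieces in replicate 1. Replicate 1 alone did so for 4:875442-888790 (13.349 kb, 2.32-fold) and 4:1338498-1348666 (10.169 kb, 3.40-fold). Both replicates broke 4:133846-147600 (13.755 kb, 1.80-fold), 4:194680-209812 and 4:770298-790050. The pair at the high-coordinate end of the chromosome sequence stood at 4.00 and 3.40-fold, above the other 8 domains, which lay between 1.58 and 2.47-fold.

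Broad domains had higher scores than the 3055 regions of the narrower class in the middle of the distribution, and a like share of both reached a score of 2. Their median score was 1.37 (2.58-fold, quartiles 2.15 and 3.06-fold), and that of the narrower class was 1.01 (2.01-fold, quartiles 1.55 and 2.80-fold), a difference of 0.36 on the log2 scale. Of the broad domains, 283 (80.9%) lay above the narrower median, and 30.4% of the narrower regions lay above the median of the broad ones. The width rule and the score come from the same data, so these values are a description and no test was made. The lower part of the narrower class had no counterpart: 531 of its regions (17.4%) scored below the lowest broad domain. A score of 2 or more was reached by 9.71% of the broad domains and 9.23% of the narrower regions, and a score of 3 or more by 3 broad domains (0.857%) and 17 narrower regions (0.556%). A single narrower region scored above the highest broad domain.

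The score rose with width below the threshold and hardly above it. Regions of 2500 to under 5000 bp had a median of 1.91-fold, those of 5000 to under 7500 bp 2.19-fold and the rest of the narrower class 2.30-fold. Broad domains of 10 to under 15 kb had 2.57-fold, those of 15 to under 20 kb 2.58-fold, those of 20 to under 30 kb 2.73-fold, and the 16 of 30 kb or more 2.36-fold. Across the 350 domains, Spearman's rho of width and score was −0.01, against 0.17 across the narrower class; the points of each share the same libraries. Broad domains had the higher median on each of the 6 arms. On the X it was 1.42 against 1.04, on 3R 1.44 against 1.01, on 2L 1.34 against 0.98, on 2R 1.31 against 1.04, on 3L 1.29 against 1.05 and on chromosome 4 0.95 against 0.65.

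The same order was seen in each replicate. With the scores of the pieces averaged by their bases, the median over broad domains was 2.47-fold in replicate 1 and 2.79-fold in replicate 2, where the narrower class had 2.06 and 2.37-fold. On the log2 scale the differences were 0.27 and 0.23, smaller than the 0.36 of the replicate set. By the best piece in place of the average they were 0.44 and 0.43. A highest value over more pieces is raised by construction, and broad domains were in more pieces than the narrower class. Narrower regions with no region in a replicate drop out of these values, 42 in replicate 1 and 203 in replicate 2, as does 1 broad domain in replicate 2. Across the 349 domains held in both, Spearman's rho between the averaged scores was 0.89, as a description of places taken from a list of the same reads. Against the regions of 5000 to under 10000 bp alone, the difference in the replicate set was 0.22.

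**Figure D4:**
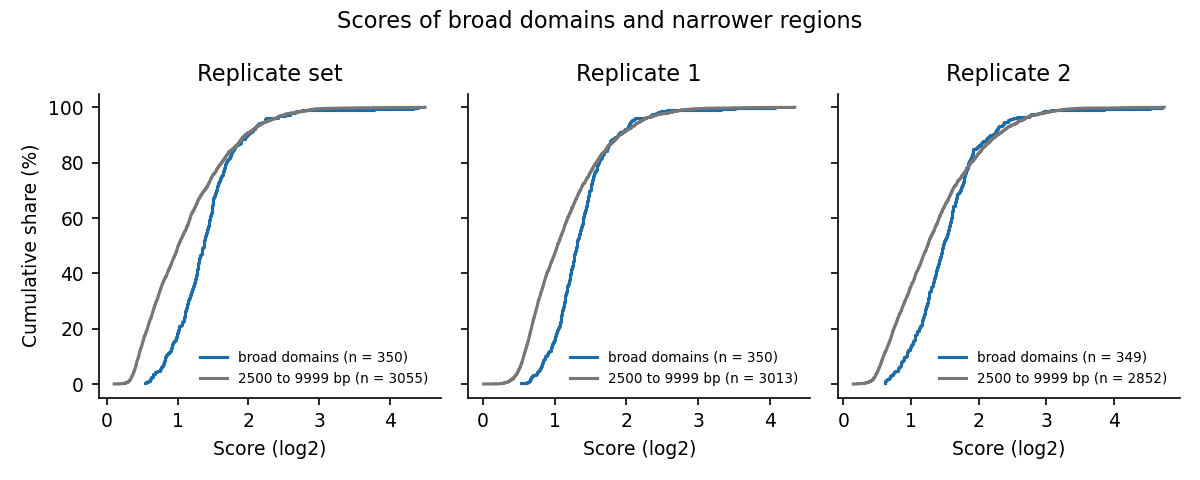
Cumulative share in percent of broad domains (blue) and regions of the narrower class (grey) by score on the log2 scale, in the replicate set and, as base-weighted means of the overlapping regions, in each replicate. The curves lie apart at low scores and come together near a score of 2, which 9.71% and 9.23% reach in the replicate set.

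The strongest broad domain was 3R:17121280-17132146 (10.867 kb) at 21.05-fold (19.9 to 22.3), in 2 regions of replicate 1 at 17.2 and 4.41-fold and in 1 region of replicate 2 at 26.2-fold. Close to it came 3R:8327168-8337980 (10.813 kb) at 20.1-fold (18.7 to 21.5), which both replicates held as 1 region, at 16.8 and 23.1-fold. The third was 3R:7773690-7789858 (16.169 kb) at 13.7-fold (13.2 to 14.1). Both replicates broke it at nearly the same place, with 3.49 and 14.7-fold for its pieces in replicate 1 and 4.69 and 21.4-fold in replicate 2. Well below these stood 3L:222028-233720 (11.693 kb, 7.55-fold) and 2R:7774134-7784718 (10.585 kb, 6.76-fold). The 3 strongest were thus all on 3R and 10.8 to 16.2 kb wide.

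The weakest were 2R:7950536-7967940 (17.405 kb) at 1.45-fold (1.33 to 1.58), 3L:15532788-15545718 (12.931 kb) at 1.46-fold (1.39 to 1.52), 2L:6973444-6985474 at 1.47-fold (1.40 to 1.55), 3R:5770642-5782810 (12.169 kb) at 1.49-fold (1.42 to 1.56) and 3R:27722642-27743798 at 1.53-fold (1.47 to 1.58). The counting intervals of neighbours in this order overlap. All but the 2L domain were broken in both replicates, in 3 to 5 pieces each.

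Domains held as 1 region were stronger than broken ones. The 84 domains that both replicates held as 1 region had a median of 3.12-fold, the 135 broken in both 2.26-fold and the other 131 2.58-fold. Their median widths were 12.8, 14.7 and 13.1 kb. Of the 88 domains with the lowest scores, up to 1.11, both replicates held 8 as 1 region. Of the 87 with the highest, from 1.63, they held 45 (51.7%). Among the domains between, the share was 17.0% for the lower 88 and 18.4% for the upper 87. Spearman's rho of the score with the number of pieces was −0.36 in replicate 1 and −0.33 in replicate 2, across 350 domains. Score and pieces come from the same reads, and the part of signal strength in how a list was cut was not tested. Input reads per kb, in lowest terms, had a median of 196 in the domains held as 1 region. It was 220 in those broken in both and 186 in the other 131. ChIP reads per kb, in lowest terms, had medians of 508, 402 and 436 in the same order. The part of depth was not tested.

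Signal along broken domains was uneven. The strongest and the weakest piece of a domain differed by 0.75 on the log2 scale (median) in the 190 broken domains of replicate 1 and by 0.83 in the 210 of replicate 2. Such a difference is positive by construction and tends to rise with the number of pieces. The strongest piece had at least 2 times the fold of the weakest in 63 (33.2%) and 88 (41.9%) of them. The widest piece was also the strongest in 114 and 123, where 107 and 132 of the broken domains had only 2 pieces. In domains of 3 or more pieces the strongest was an inner one in 16 of 83 and in 19 of 78. Of these, 64 and 62 were in exactly 3 pieces, of which 1 is inner. Among the 135 domains broken in both replicates, the strongest pieces of the replicates overlapped in 125 (92.6%), which their width favours.

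Broad domains were spread along the arms, with some close groups. From a domain to the next on its arm, edge to edge, the median was 166 kb, with quartiles of 52.6 and 437 kb over 344 neighbouring pairs. To the nearest domain on either side the median was 69.8 kb. Regions of the narrower class followed each other at a median of 10.9 kb. The SD of the spacing was 1.21 times its mean for broad domains and 1.78 times for the narrower class. Between neighbouring domains lay a median of 13 regions of any width under 10 kb. A broad domain was seldom alone: its nearest region of any width was a median of 662 bp away, against 1019 bp for the narrower class. Regions of the narrower class lay a median of 86.3 kb from the nearest broad domain and those under 2500 bp 115 kb.

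Of the 350 domains, 91 (26.0%) had another within 20 kb. They formed 35 pairs and 7 groups of 3, and no larger group. The group of 3 with the most sequence in domains, 78.6 kb of a span of 90.02 kb, was on 2L from 5148426 to 5238442; that on 3R from 26102572 to 26188136 held 75.9 kb of 85.6 kb. The pair on the X from 1474396 to 1567522, both among the 10 widest, held more than either, 87.6 kb of 93.1 kb. By windows of 1 Mb, the X from 1000001 to 2000000 had 10 domains and the X from 6000001 to 7000000 had 9. Of 118 whole windows, 15 held 6 or more domains and together 111 of the 350, while 11 held none; the median window had 2.

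**Figure D5:**
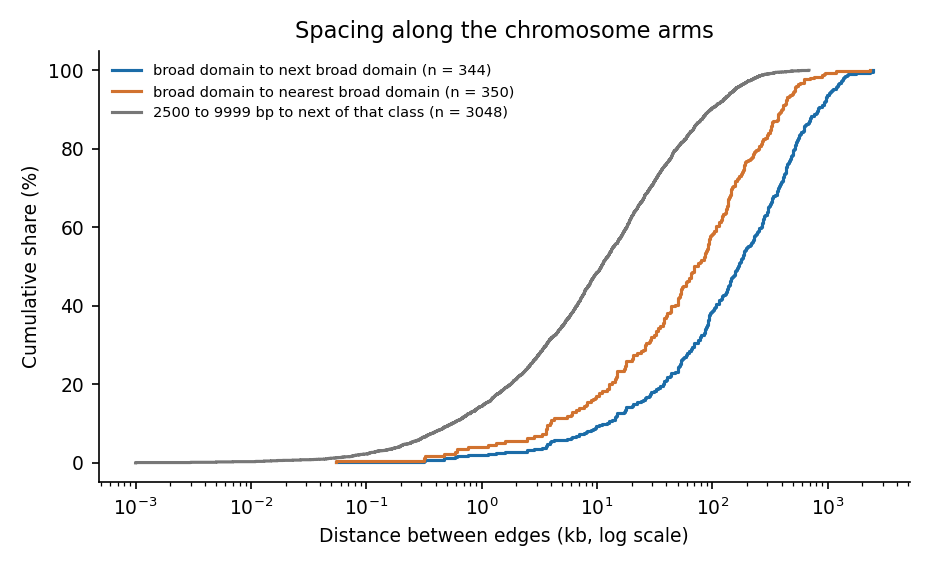
Cumulative share in percent by distance between edges in kb (log scale): from each broad domain to the next on its arm (blue) and to the nearest on either side (orange), and from each region of the narrower class to the next of its class (grey, 1 overlapping pair left out). Medians are 166, 69.8 and 10.9 kb.

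The closest neighbours were nearly continuous. The domains 3R:16399412-16410158 (10.747 kb, 2.82-fold) and 3R:16410214-16420468 (10.255 kb, 2.36-fold) lay 55 bp apart and together spanned 21.1 kb. The domains 3R:26102572-26118378 (15.807 kb, 2.59-fold) and 3R:26118696-26140372 (21.677 kb, 1.54-fold) lay 317 bp apart and spanned 37.8 kb. In both pairs 1 region of replicate 2 ran across the space between the domains, and these were the only pairs that any replicate joined; replicate 1 joined none. Next came 3L:539390-560046 (20.657 kb, 2.79-fold) and 3L:560372-575592 (15.221 kb, 1.61-fold) at 325 bp, 2R:20872066-20886074 (14.009 kb, 1.89-fold) and 2R:20886552-20900942 (14.391 kb, 2.73-fold) at 477 bp, and X:17978294-17993332 (15.039 kb, 2.82-fold) and X:17993922-18011864 (17.943 kb, 3.40-fold) at 589 bp. In all, 7 pairs were less than 1 kb apart and 20 less than 5 kb, 16 of these 20 with no other region between them. In 1 pair the levels lay much further apart than in the 5 closest pairs. The strongest domain, 3R:17121280-17132146 at 21.05-fold, lay 1127 bp from 3R:17133274-17146554 at 2.89-fold. This pair holds the highest score of all broad domains, so it does not stand for close pairs in general.

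The most remote domain was 3L:22855970-22874494 (18.525 kb, 2.88-fold), 2341 kb from any other and the last on its arm, with 174 regions of any width under 10 kb in between. The most remote on 3R was 3R:21874728-21885926 (11.199 kb, 2.79-fold) at 1191 kb, on 2L 2L:18135636-18149474 (13.839 kb, 2.14-fold) at 889 kb, on the X X:12552242-12574438 (22.197 kb, 2.53-fold) at 697 kb, on 2R 2R:2511432-2521684 (10.253 kb, 5.99-fold) at 490 kb and on chromosome 4 4:478826-489724 at 178 kb. The longest stretch between neighbours, 2.47 Mb on 2L from 13836729 to 16306277, held 88 regions of any width under 10 kb.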

How the data were processed

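ChIP-seq of Pol II was deposited for 2 ChIP replicates with 2 inputs. The aligner was Bowtie (0.12.7), named in the submitters' processing notes. No peak caller, threshold or filter is given in the sources used here. Each of the 3 deposited lists, 1 per replicate and 1 for the replicate set, gives a log2 score per region, on FlyBase release 5 per the file headers. How the replicate set was combined is not stated; it is not independent of the replicates.

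Domains were enriched regions of at least 10000 bp on 6 arms. Read ratios were recovered as fractions with denominators up to 20000 within a relative tolerance of 1e-11. Pieces, coverage, edges, spacing and scores were computed with Python 3.11.15, numpy 2.4.6, pandas 2.3.3 and scipy 1.17.1, and checked on simulated lists. Scores were compared only within a list. Domains, lists and measures were chosen with earlier results of these data known, so no test was made and values are descriptions. Regions named were the 10 widest, 5 highest and 5 lowest scores, 3 on each side of the threshold, 3 with most pieces (ties by width) and lowest coverage per replicate, 5 closest pairs, the most remote and the widest per arm, and all of chromosome 4; others were named after their values were seen. Alternatives covered thresholds, overlap, joining, stricter scores, the rule in single lists, and replicate set domains read in only 1 replicate list. A planned count of genes inside domains was not made, since no gene positions on release 5 were used here.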

Additional observations from a re-analysis of the deposited data

How the results depend on the processing

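The number of broad domains was 561 at a threshold of 8000 bp and 141 at 15000 bp, against 350. The same rule gave 208 in the replicate 1 list and 186 in the replicate 2 list, and 509 after replicate set regions less than 500 bp apart were joined. Domains that both replicates held as 1 region, 24.0%, came to 30.1% at 8000 bp and 19.1% at 15000 bp. They came to 49.1% and 89.4% after joining under 500 and 2000 bp, and to 47.1% in the higher-scoring 50% of each replicate list. With only 1 replicate list read they came to 39.7% to 45.7%. The domains were still those of the replicate set, which holds both replicates, so this did not leave a replicate out of their choice. Joining removes breaks by construction, and the stricter lists drop weak pieces. The median share of bases in both replicates, 86.9%, was 71.5% in the higher-scoring 50%. In 1 replicate list alone the share was 92.4% to 95.02%. The median spacing of 166 kb was 97.8 kb at 8000 bp, 481 kb at 15000 bp, 321 kb in the replicate 1 list, 342 kb in the replicate 2 list, 113 kb after joining and 181 kb from centre to centre. The score difference of 0.36 was 0.31 at 8000 bp (against 2500 to under 8000 bp) and 0.22 against 5000 to under 10000 bp. With piece scores of 1 replicate list averaged by their bases, another measure at the same places, it was 0.23 to 0.27. It stayed above 0 in each. Of 31 alternative values, 7 moved by less than the SD between replicates, or for counts by less than 1.5 times; none turned in sign. No paired analysis was possible because no list of regions was given for the inputs alone, and both ChIP replicates are in a single group. Counting error was larger in the narrower class, whose regions hold fewer reads, with a median standard error of 0.07 against 0.03. Median input reads per kb, in lowest terms, were 207 in that class and 197 in broad domains.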

Other observations

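Regions of 10 kb or more that a single replicate list held, but that touched no broad domain of the replicate set, numbered 7 in replicate 1 and 10 in replicate 2. In the replicate set, regions under the threshold lay at each of these places. In replicate 1 the widest was 3R:17847192-17862509 (15.318 kb, 1.79-fold), which overlapped 2 replicate set regions, the wider of 9.31 kb. In replicate 2 the widest was 4:587557-602422 (14.866 kb, 1.75-fold), which overlapped 3, and chromosome 4 contributed 3 of the 10.

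When the width rule was applied to 1 replicate and the place looked up in the other, the shares with 1 region were higher than for the replicate set domains. Of those domains, replicate 2 held 39.7% as 1 region and replicate 1 held 45.7%. Of the 208 regions of 10 kb or more of replicate 1, replicate 2 had 1 region at 112 (53.8%), 2 or more at 95 and none at 1, and covered a median of 95.3% of their bases. Of the 186 of replicate 2, replicate 1 had 1 region at 95 (51.1%), 2 or more at 91 and none at 0, and covered 96.6%. For regions of at least 2500 but under 10000 bp the shares with 1 region were 82.7% and 88.0%. Replicate 2 had none at 168 of 2908 such regions of replicate 1 (5.78%), and replicate 1 had none at 14 of 2535 of replicate 2 (0.55%).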
